A study of Mus musculus with 10 samples.

Results

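The receptors, ligands and fringe enzymes of the Notch pathway were followed in supporting cells sorted from the mouse utricle, a balance organ of the inner ear. The 10 genes were chosen by name from the 48709 genes of the tables: the receptors Notch1, Notch2 and Notch3, the ligands Jag1, Jag2, Dll1 and Dll3, and the fringes Lfng, Mfng and Rfng. The utricles came from animals of postnatal day 21 (P21) that carried an Lfng-EGFP reporter, and the GFP-positive cells were collected by flow cytometry, so that activity of the Lfng reporter decided which cells of every group were sequenced. Explants were cultured for 5 days in 0.1% DMSO (3 libraries, DMSO d5) or in 10 μM TRULI, an inhibitor of the Lats kinases of the Hippo pathway, in the same vehicle (3 libraries, TRULI d5), and other explants were cultured for a further 5 days without treatment after the DMSO (2 libraries, DMSO d10) or after the TRULI (2 libraries, TRULI d10). The methods of the study call the replicates biological, and the labels do not say which animals or explants each library came from, so that p-values measure the spread between these libraries.

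For 4 of the 10 libraries the sample label and the name under which the table was deposited gave different conditions. The libraries labelled TRULI d5 replicates 1 and 2 were deposited as DMSO d10, and those labelled DMSO d10 replicates 1 and 2 were deposited as TRULI d5. The label and the name gave the same condition for the 3 DMSO d5 libraries, the library labelled TRULI d5 replicate 3 and both TRULI d10 libraries. Groups by sample label are the main grouping below, and the same values are given by deposited name beside them. Ccn2, a target of Yap, the transcription coactivator that Lats kinases restrain, had 2708 counts in the library labelled TRULI d5 replicate 3. It had 1965 and 2148 counts in the 2 libraries labelled DMSO d10, but 13 and 18 counts in the libraries labelled TRULI d5 replicates 1 and 2 and 18 to 88 counts in the other 5. Mki67, a gene of dividing cells, had 102, 509 and 251 counts in those same 3 libraries of high Ccn2 and at most 5 counts elsewhere. The libraries in which both treatment markers were high were thus the 3 deposited as TRULI d5.

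Notch receptors are single-pass membrane proteins that are cut upon binding a ligand on a neighboring cell, which frees an intracellular domain to act with Rbpj in the nucleus. Jagged and Delta proteins are the ligands, whereas fringes are Golgi glycosyltransferases that extend sugars on the receptor and change its response to each class of ligand. In sensory epithelia of the inner ear the pathway is known for lateral inhibition, by which a cell that becomes a hair cell presents Delta-family ligands and keeps its neighbors as supporting cells, and for the earlier Jag1 signal of the prosensory domain. Lfng is a well-known marker of supporting cells.

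The libraries held 2463872 to 6255149 expected counts. The share of the mitochondrial ribosomal RNA mt-Rnr2 was 1.45 to 2.53% in the 4 libraries deposited as d10 and 13.0 to 26.4% in the 6 deposited as d5. Supporting-cell markers were present throughout, with 11 or 12 of 12 above 3 counts and a summed level of 3409 to 5315 FPKM in the libraries deposited as d5 against 1621 to 2807 FPKM in those deposited as d10. FPKM here are fragments per kilobase of effective length, scaled to the protein-coding total of each library. The 14 hair-cell markers summed to 133 to 579 FPKM and 52.0 to 412 FPKM in the same order, with Calb1 at 0 or 1 count and Ocm at 0 to 4. Of the pericyte and smooth-muscle list, Acta2 was at 0 counts in every library and Rgs5 at 0 to 3, while the list summed to 4.49 to 16.2 FPKM in libraries deposited as d5 and 0.534 to 4.04 FPKM in those deposited as d10. The Schwann-cell list summed to 121 to 278 FPKM and to 431 to 645 FPKM, carried by Egr2, Erbb3 and Mbp. Mesenchyme, endothelium, macrophage, melanocyte and erythrocyte lists each summed to at most 30.4 FPKM.

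Lfng had by far the highest level of the 10 genes, a mean over all libraries of 185 FPKM, which ranked 444 among protein-coding genes. Notch1 followed with 20.4, Jag1 with 19.5 and Notch3 with 17.0 FPKM. Dll1 had a mean of 7.27 FPKM, Jag2 of 5.76 and Rfng of 3.94. Mfng at 0.562, Notch2 at 0.529 and Dll3 at 0.103 FPKM ended the order. The ranges over the 10 libraries overlapped for every pair of neighbors in that order. The plot of each gene's level by library shows these values.

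**Figure D1:**
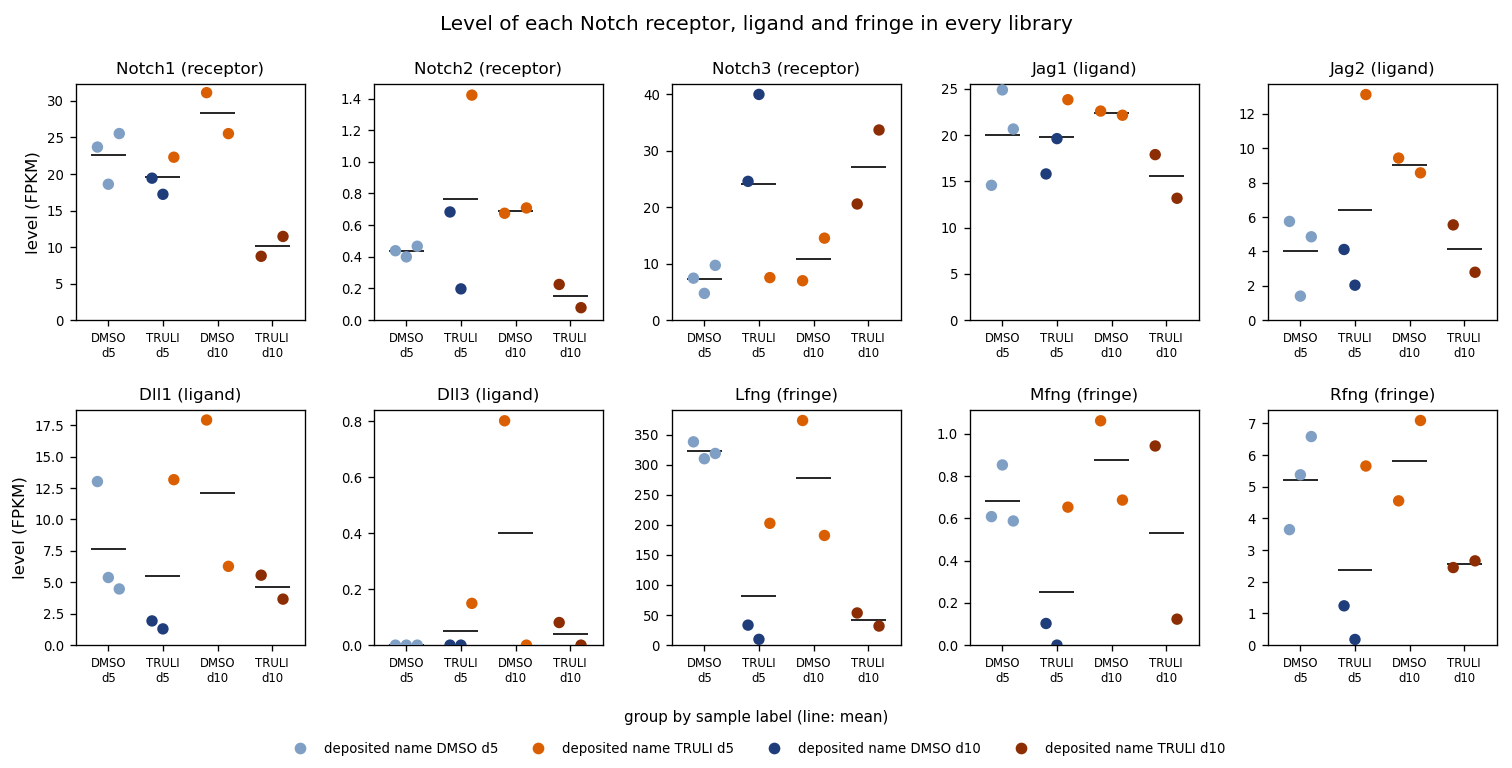
Level in FPKM (linear axis from 0) of each of the 10 genes in every library, with the groups of the sample labels along the horizontal axis, a line at each group's mean and each point colored by the condition in the library's deposited name. In the group labelled TRULI d5, 2 points of Lfng lie at 9.59 and 33.3 FPKM and the third at 203 FPKM, and 2 points of Notch3 lie at 24.6 and 40.0 FPKM and the third at 7.52 FPKM.

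Notch1, the receptor with the highest mean level, lies on chromosome 2 (GRCm38, chr2:26457903-26516663, minus strand). It measured 23.7, 18.6 and 25.5 FPKM in the DMSO d5 libraries and 19.4, 17.2 and 22.3 FPKM in the libraries labelled TRULI d5, in replicate order. The libraries labelled DMSO d10 had 31.1 and 25.5 FPKM, and the TRULI d10 libraries 8.73 and 11.5 FPKM. Both TRULI d10 libraries thus lay below each of the other 8, a separation that was not counted over all genes. The annotation places 0610009E02Rik, with 132 to 388 counts, and Gm13568, with 29 to 236 counts, on the opposite strand of the gene. The strand setting of the counting is not given in the sources used here, so reads of these overlaps cannot be told apart from those of Notch1.

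Notch3, a receptor of which vascular smooth muscle is the best-known site, lies at chr17:32120820-32166852 on the minus strand of GRCm38. Its level was 7.42, 4.72 and 9.69 FPKM in the DMSO d5 libraries. In the libraries labelled TRULI d5 it was 24.6, 40.0 and 7.52 FPKM, in those labelled DMSO d10 6.97 and 14.5 FPKM, and in the TRULI d10 libraries 20.6 and 33.7 FPKM. The 4 libraries deposited as d10 were the highest of the 10, at 20.6 to 40.0 FPKM, against 4.72 to 14.5 FPKM in the 6 deposited as d5. The share of all genes that separated these libraries in this way was not counted. By deposited name 27.7% of 11918 genes differed across the 4 groups in the test given below. By sample label, the group labelled TRULI d5 spanned nearly the whole range. The pericyte and smooth-muscle list, whose sum was carried by Kcnj8 and in which Acta2 was at 0 counts throughout, summed to 0.534 to 4.04 FPKM in the 4 libraries of high Notch3 and 4.49 to 16.2 FPKM in the others. Gm17276, antisense to Notch3, had at most 1 count.

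Notch2 (chr3:98013527-98150361, plus strand) was the scarcest receptor, with 4 to 42 counts in a library. Its level was 0.399 to 0.467 FPKM in the DMSO d5 libraries, and 0.683, 0.197 and 1.42 FPKM in the libraries labelled TRULI d5. It was 0.675 and 0.709 FPKM in the libraries labelled DMSO d10 and 0.225 and 0.0782 FPKM in the TRULI d10 libraries. At this depth its counting error alone is large. Notch3 made up 18.0 to 35.6% of the summed FPKM of the 3 receptors in the libraries deposited as d5 and 55.0 to 74.5% in those deposited as d10, and the share of Notch1 was 62.7 to 80.3% and 25.3 to 43.5%. Notch2 never exceeded 4.55% of that sum.

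**Figure D2:**
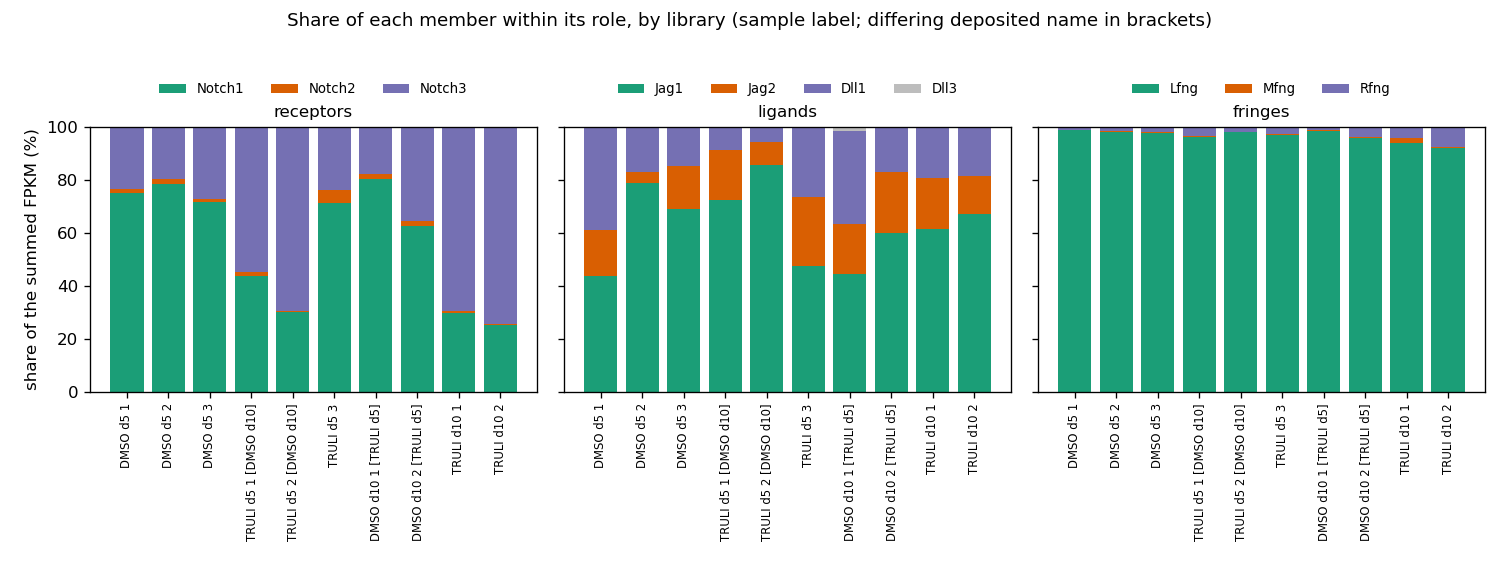
Share in percent of the summed FPKM of the receptors (left), ligands (middle) and fringes (right) that each gene contributed in each library, named by sample label with a differing deposited name in brackets. Notch3 holds 55.0 to 74.5% of the receptor sum in the 4 libraries deposited as d10, and Lfng holds 91.9 to 98.8% of the fringe sum in all 10.

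Jag1, the ligand of the prosensory domain that supporting cells keep, was the most even of the genes (chr2:137081456-137116644, minus strand). Its level was 14.6, 24.9 and 20.7 FPKM in the DMSO d5 libraries and 15.8, 19.6 and 23.8 FPKM in the libraries labelled TRULI d5. The libraries labelled DMSO d10 had 22.6 and 22.1 FPKM and the TRULI d10 libraries 17.9 and 13.2 FPKM. The highest library exceeded the lowest 1.89 times, against 38.9 times for Lfng, and the DMSO d5 libraries spanned most of this range. By sample label the DMSO d10 libraries lay above the TRULI d10 libraries. By deposited name the TRULI d5 libraries lay above all 4 deposited as d10. Such separations were not counted over all genes, and the fitted changes given below did not pass the test.

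Jag2 and Dll1 are ligands that developing hair cells are known to present. Jag2 (chr12:112907819-112929776, minus strand) measured 5.74, 1.39 and 4.85 FPKM in the DMSO d5 libraries, and 4.11, 2.03 and 13.1 FPKM in the libraries labelled TRULI d5. It measured 9.43 and 8.57 FPKM in those labelled DMSO d10 and 5.54 and 2.78 FPKM in the TRULI d10 libraries. The 3 libraries deposited as TRULI d5, at 8.57 to 13.1 FPKM, were the highest of the 10. Dll1 (chr17:15367354-15376872, minus strand) had 23, 20 and 42 counts in the DMSO d5 libraries and 17, 3 and 84 counts in the libraries labelled TRULI d5. It had 84 and 75 counts in the libraries labelled DMSO d10 and 29 and 23 counts in the TRULI d10 libraries. The 3 libraries deposited as TRULI d5 were again the highest in counts, at 75 to 84. For Jag2 and Dll1 alike, the share of all genes highest in these 3 libraries was not counted. The effective length of Dll1 in the tables ranged from 783 to 3346 bases between libraries, so its FPKM, at 1.29 to 17.9, depend on how reads were assigned to its transcripts, and its counts are given instead. Dll3, a divergent family member that does not activate the receptor from a neighboring cell, had 0 or 1 count in each library. In the shallowest and the deepest library 3 counts would be 1.50 and 0.501 CPM over protein-coding counts.

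Lfng, the fringe of supporting cells, lies at chr5:140607320-140615545 on the plus strand. Since the cells were sorted by a reporter of this gene, its level describes cells already selected for reporter activity. Lfng measured 338, 310 and 319 FPKM in the DMSO d5 libraries. The libraries labelled TRULI d5 had 33.3, 9.59 and 203 FPKM, those labelled DMSO d10 had 374 and 182 FPKM, and the TRULI d10 libraries had 53.5 and 31.7 FPKM. The 4 libraries deposited as d10 were the lowest, at 9.59 to 53.5 FPKM, against 182 to 374 FPKM in the 6 deposited as d5. As for Notch3, such a separation was not counted over all genes. The library with the least Lfng, labelled TRULI d5 replicate 2, also had the lowest sum of the supporting-cell markers, 1621 FPKM, and the part of this in the level of Lfng was not tested. The plot of Lfng against Notch3 shows the 4 libraries of low Lfng and high Notch3 apart from the other 6.

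**Figure D3:**
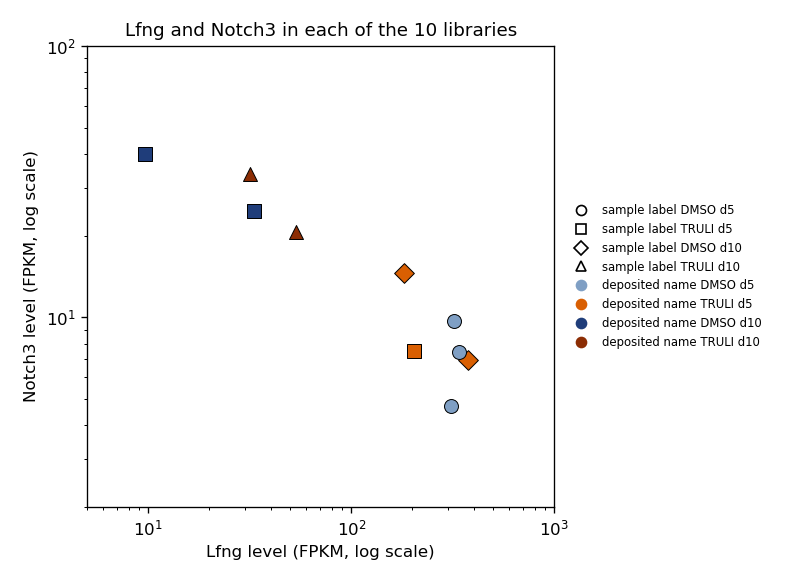
Level of Lfng (horizontal, FPKM, log scale) and Notch3 (vertical, FPKM, log scale) in each of the 10 libraries, with the shape giving the sample label and the color the condition in the deposited name. The 4 libraries deposited as d10 lie at 9.59 to 53.5 FPKM of Lfng and 20.6 to 40.0 FPKM of Notch3, and the 6 deposited as d5 at 182 to 374 and 4.72 to 14.5 FPKM.

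The promoters of Lfng, Notch3 and Notch1 are shown. Lfng and Notch3 moved in opposite directions between those libraries, and Notch1 was the receptor with the highest mean level. Each sequence runs from 250 bases before to 50 bases after the start that RefSeq gives on GRCm38.p6, 5′ to 3′ on the strand of the gene. Capitals mark TGGGAA or its reverse complement TTCCCA, the core letters that Rbpj is known to bind, and GGAATG or CATTCC, the core letters of the Tead factors with which Yap acts.
Lfng (chr5:140607091-140607390, plus strand): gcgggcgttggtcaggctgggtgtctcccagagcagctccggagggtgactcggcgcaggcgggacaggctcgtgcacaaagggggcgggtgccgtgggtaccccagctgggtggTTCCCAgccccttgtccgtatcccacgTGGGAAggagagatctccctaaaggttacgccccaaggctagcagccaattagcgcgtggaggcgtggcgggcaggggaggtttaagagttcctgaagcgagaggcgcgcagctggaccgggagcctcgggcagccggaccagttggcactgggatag
Notch3 (chr17:32166841-32167140, minus strand): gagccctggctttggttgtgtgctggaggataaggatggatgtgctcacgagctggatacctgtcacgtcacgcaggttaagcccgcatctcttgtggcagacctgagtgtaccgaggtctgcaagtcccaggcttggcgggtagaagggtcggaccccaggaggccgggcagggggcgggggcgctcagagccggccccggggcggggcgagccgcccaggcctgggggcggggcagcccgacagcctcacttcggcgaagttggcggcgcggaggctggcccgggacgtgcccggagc
Notch1 (chr2:26503773-26504072, minus strand): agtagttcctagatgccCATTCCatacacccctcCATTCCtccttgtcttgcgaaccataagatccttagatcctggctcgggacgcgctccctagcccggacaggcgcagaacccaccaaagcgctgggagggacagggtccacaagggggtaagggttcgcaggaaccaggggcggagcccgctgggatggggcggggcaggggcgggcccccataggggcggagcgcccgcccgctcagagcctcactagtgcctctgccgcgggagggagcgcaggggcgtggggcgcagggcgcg
RefSeq promoters were matched for 9 of the 10 genes, with 2 for Dll1. Lfng alone of these held the Rbpj letters, 2 times, with the first base at positions -135 and -108 from the start. Such letters occurred in 25.6% of 32851 promoters of the same length. The Tead letters occurred 2 times in Notch1, at -233 and -216, and once in Dll3, against 14.7% of all promoters. These are matches of letters in a window of 300 bases, and binding was not measured.

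The other fringes were scarce. Rfng (chr11:120780746-120784207, minus strand) measured 3.65, 5.38 and 6.59 FPKM in the DMSO d5 libraries, and 1.24, 0.179 and 5.66 FPKM in those labelled TRULI d5. The libraries labelled DMSO d10 had 4.56 and 7.09 FPKM and the TRULI d10 libraries 2.45 and 2.66 FPKM. As with Lfng, every library deposited as d10 was below every library deposited as d5, but these values rest on 1 to 50 counts. Here too the separation was not counted over all genes. Mfng (chr15:78755882-78773475, minus strand) had 0 to 8 counts in a library, and only 3 of the 10 libraries exceeded 3 counts.

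The first comparison asked whether 5 days of TRULI changed these genes. Dll3 and Mfng did not pass the filter on low counts, and the other 8 members were tested among 10580 protein-coding genes with edgeR's quasi-likelihood test and Benjamini-Hochberg adjustment, a gene being called at an adjusted p under 0.05. By sample label, 0 of the 8 members were called in edgeR, 2 had an unadjusted p under 0.05, and DESeq2 called 1, Notch3. The background was low as well, since 0.00945% of the genes tested were called in edgeR and 1.74% of 15158 genes in DESeq2. The log2 fold change of Notch3, TRULI over DMSO, was 2.06 ± 0.65 (SE) with an adjusted p of 0.328, and that of Lfng was -1.98 ± 0.80 with an adjusted p of 0.352, in edgeR. Both values rested on the libraries labelled TRULI d5 replicates 1 and 2. Without replicate 3 of that group both were called in edgeR, Notch3 at 2.50 with an adjusted p of 0.0082 and Lfng at -3.63 with an adjusted p of 0.00565. That fit called 19.2% of 10810 genes, and its TRULI group held only libraries deposited as DMSO d10. Notch1, at -0.03 ± 0.30, and Jag1, at 0.18 ± 0.33, had estimates near 0. Notch2 was at 0.90 ± 0.71, Jag2 at 0.75 ± 0.69, Dll1 at 0.00 ± 0.95 and Rfng at -1.17 ± 0.90.

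By deposited name, 0 of 8 members were called at 5 days in edgeR, against a background of 3.32% of 10984 genes. An unadjusted p under 0.05 was found for 2 members, while DESeq2 called 0 members and 4.73% of 15174 genes. The ligands Jag2, at a log2 fold change of 1.32 ± 0.44 (edgeR adjusted p = 0.152), and Dll1, at 1.20 ± 0.34 (edgeR adjusted p = 0.0892), had the largest changes. Every TRULI library exceeded every DMSO library in the FPKM of Jag2 and in the counts of Dll1. How many of all genes did so was not counted. Libraries of the same number in the deposited names had correlated deviations at this time (0.362, 0.185 and 0.293). Libraries of unlike numbers were not compared, and the labels do not say what the numbers mark. With these numbers as a replicate block both ligands were called in edgeR and rose, Jag2 by 1.43 ± 0.34 (adjusted p = 0.0221) and Dll1 by 1.21 ± 0.33 (adjusted p = 0.0409), with 10.2% of all genes called. The 2 libraries labelled DMSO d10 supply part of this TRULI group, so that these values hold only if the deposited names are right. Hair-cell markers summed to 140 to 323 FPKM in the DMSO d5 libraries and 133 to 579 FPKM in those deposited as TRULI d5, and their part in the change of the ligands was not tested. Lfng had a log2 fold change of -0.44 ± 0.27, Notch3 of 0.38 ± 0.36, Notch2 of 1.03 ± 0.49 and Notch1 of 0.16 ± 0.22. Jag1 stood at 0.11 ± 0.23 and Rfng at 0.08 ± 0.42. In the 4 libraries of this comparison whose label and name agree, 1 treated against 3 controls, Jag2 was 1.62 ± 0.58 and Dll1 1.33 ± 0.48 higher on the log2 scale, with edgeR adjusted p-values of 0.259 and 0.268.

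The second comparison asked what remained after 5 days without TRULI, in 2 libraries against 2. By sample label Lfng fell, with a log2 fold change of -2.32 ± 0.44 and an edgeR adjusted p of 0.0461, and 1 of 8 members was thus called against a background of 1.97% of 11469 genes. DESeq2 called 2 members, Lfng and Notch3, against 9.4% of 14886 genes. In a fit of all 10 libraries the call of Lfng was lost, with an edgeR adjusted p of 0.203, and 0 members were called, 3 having an unadjusted p under 0.05. The 2 libraries labelled DMSO d10 were 2 of the 3 deposited as TRULI d5 and high in Ccn2 and Mki67, and their mt-Rnr2 shares were 23.6 and 13.0% against 1.45 and 2.50% in the TRULI d10 libraries. The call of Lfng was lost without either of them, at adjusted p-values of 0.317 without replicate 1 and 0.108 without replicate 2. Without TRULI d10 replicate 1, the log2 fold change was 2.02 for Notch3 and -2.02 for Dll1. Without TRULI d10 replicate 2 it was -1.42 for Notch1 and -1.90 for Dll1. Either fit left 1 library in the TRULI d10 group. In the full comparison Notch1 was at -1.10 ± 0.36, Notch3 at 1.66 ± 0.52 and Dll1 at -1.94 ± 0.61, with edgeR adjusted p-values of 0.123, 0.112 and 0.113. Notch2 was at -1.86 ± 0.94, Jag1 at -0.15 ± 0.36, Jag2 at -0.79 ± 0.53 and Rfng at -0.93 ± 0.74.

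By deposited name the direction of Lfng was the opposite. With the libraries labelled TRULI d5 replicates 1 and 2 as the DMSO d10 group, its log2 fold change was 0.98 ± 0.61, 0 of 8 members were called in edgeR and by DESeq2, and none had an unadjusted p under 0.05. Over all 10845 genes edgeR called 0%, with 490 at an unadjusted p under 0.05, and DESeq2 called 50 genes. Notch3 was at -0.31 ± 0.46, Dll1 at 1.34 ± 1.08, Rfng at 1.77 ± 1.19 and Jag2 at 0.39 ± 0.75, all of the opposite sign to the values by label. Notch1 at -0.83 ± 0.42, Notch2 at -1.56 ± 1.18 and Jag1 at -0.26 ± 0.46 kept their sign. The direction after withdrawal of the other 5 members tested therefore rests on which source of the condition is right. As given above, Ccn2 and Mki67 were high in the libraries labelled DMSO d10, which were deposited as TRULI d5.

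**Figure D4:**
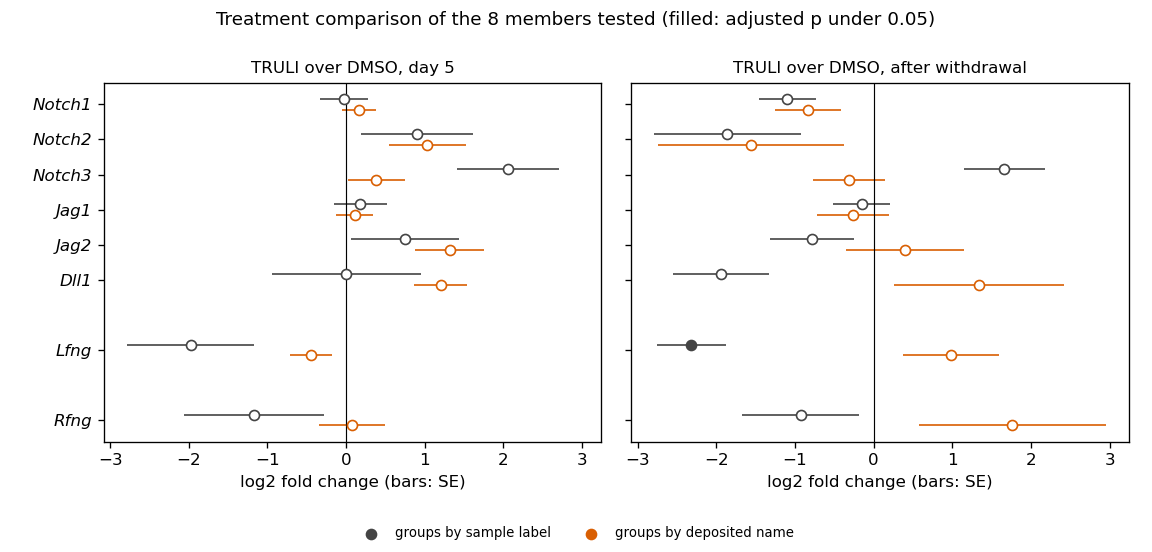
Log2 fold change of TRULI over DMSO with its SE for the 8 members tested, at day 5 (left) and after withdrawal (right), with groups by sample label in gray and by deposited name in orange and calls filled. Lfng after withdrawal lies at -2.32 by label, the only call, and at 0.98 by name.

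A test of the difference between the effect after withdrawal and the effect at 5 days called 0 of 8 members by either source of the condition, in edgeR and by DESeq2. In edgeR 0% of 11918 genes were called by label and by name, while DESeq2 called 40 and 76 genes. Unadjusted p-values under 0.05 were found for 2 members by label and 3 by name in edgeR. Notch1 was among them in both, its effect being lower after withdrawal by 1.06 ± 0.45 by label and by 0.98 ± 0.39 by name on the log2 scale, and Notch2 likewise. These differences did not pass the correction.

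Levels were then compared across all 4 groups at once. By sample label 0 of 8 members were called in edgeR (0.0168% of 11918 genes) and 3 had an unadjusted p under 0.05. DESeq2 called 2 members and 8.03% of 15723 genes. Without the library labelled TRULI d5 replicate 3, edgeR called 3 members by label, Notch3, Dll1 and Lfng, against 20.5% of 11784 genes. By deposited name Lfng (edgeR adjusted p = 6.6e-04), Notch3 (0.00276) and Dll1 (0.00502) were called, against a high background of 27.7%. In the 6 libraries whose label and name agree, which form 3 groups, 1 of them (TRULI d5) with 1 library taken to vary like the others, Lfng (edgeR adjusted p = 0.00874) and Notch3 (0.0192) were called, with 10.7% of 12161 genes called. The TRULI d10 libraries of that fit also stood apart in mt-Rnr2, at 1.45 and 2.50% against 16.2 to 26.4%, and the part of this was not tested.

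The time comparisons within each treatment were added after the values had been seen, in the same fits over 10 libraries. They share libraries with the comparisons above, and their values are given side by side. Within DMSO, by deposited name, Lfng fell after withdrawal by a log2 fold change of -3.61 ± 0.48 (edgeR adjusted p = 0.00132), Rfng by -2.53 ± 0.75 (0.0336) and Dll1 by -2.13 ± 0.57 (0.0238). Notch3 rose by 2.51 ± 0.44 (edgeR adjusted p = 0.00415). These were 4 of 8 members, against 19.1% of all genes called. Lfng and Notch3 were called whichever of the 5 libraries was left out, whereas Rfng was called only without DMSO d10 replicate 1 and Dll1 only without that library or DMSO d5 replicate 2. Notch1 at -0.01 ± 0.28, Notch2 at 0.34 ± 0.74, Jag1 at 0.17 ± 0.30 and Jag2 at -0.05 ± 0.56 did not pass the test. The libraries deposited as DMSO d10 also differed from the DMSO d5 libraries in mt-Rnr2 (1.99 and 2.53% against 16.2 to 26.4%), in the supporting-cell sum (1621 to 2807 against 3890 to 5315 FPKM) and in the Schwann-cell sum (431 to 645 against 172 to 278 FPKM). Their hair-cell sum was 52.05 to 72.41 against 140.4 to 323.2 FPKM. The part of these differences in the changes, that of Dll1 among them, was not tested.

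Within TRULI, by deposited name, Lfng fell by a log2 fold change of -2.20 ± 0.45 (edgeR adjusted p = 0.00725), Dll1 by -2.03 ± 0.54 (0.0227) and Notch1 by -0.998 ± 0.28 (0.0302). Notch3 rose by 1.83 ± 0.44 (edgeR adjusted p = 0.0145), which made 4 of 8 members against 19.0% of all genes. Leaving out 1 of the 5 libraries left 1 to 3 members called. Lfng was lost only without TRULI d10 replicate 2, at -1.90 and an edgeR adjusted p of 0.0568, while Notch3 was lost without that library (0.0987), without deposited-name TRULI d5 replicate 1 (0.0569) or without replicate 2 (0.0635). Notch1 was called only without TRULI d10 replicate 2 or deposited-name TRULI d5 replicate 1, and Dll1 only without deposited-name TRULI d5 replicate 3. Notch2 was at -2.27 ± 0.81, Jag2 at -0.99 ± 0.56, Rfng at -0.89 ± 0.67 and Jag1 at -0.18 ± 0.30. With only the libraries whose label and name agree, the 2 TRULI d10 libraries were set against 1 TRULI d5 library, which was taken to vary like the other groups. Lfng was at -1.91 ± 0.36 and called in edgeR (adjusted p = 0.0406), 1 of 8 members against 2.82% of all genes, and Notch3 was at 2.24 ± 0.58 with an adjusted p of 0.0702. By deposited name the TRULI d10 libraries had mt-Rnr2 shares of 1.45 and 2.50% against 13.0 to 23.6% at d5, a supporting-cell sum of 2097 to 2599 against 3409 to 4422 FPKM and a Schwann-cell sum of 456 to 493 against 121 to 216 FPKM. These differences between libraries cannot be told apart from time.

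By sample label neither time comparison called a member in edgeR or by DESeq2. Within TRULI 0% of genes were called, with 914 at an unadjusted p under 0.05, and DESeq2 called 66, and 2 of 8 members had an unadjusted p under 0.05. Within DMSO 0.0336% of genes and 0 members were called, and no member had an unadjusted p under 0.05. The largest member values were -2.14 ± 0.89 for Notch2 within TRULI and 1.11 ± 0.68 for Jag2 and 1.11 ± 0.92 for Dll1 within DMSO.

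**Figure D5:**
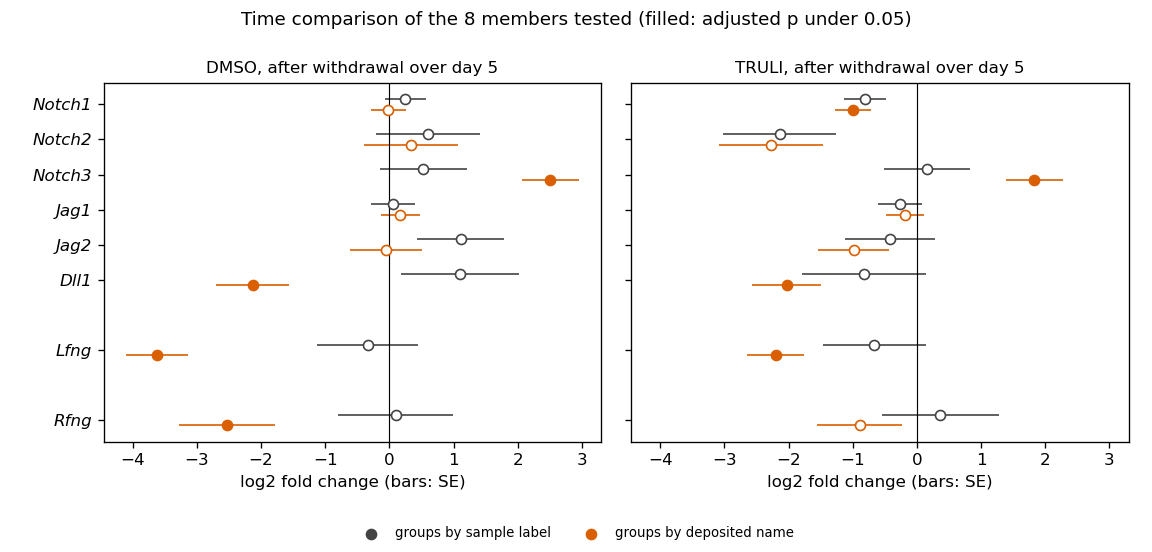
Log2 fold change after withdrawal over day 5 with its SE for the 8 members tested, within DMSO (left) and within TRULI (right), with groups by sample label in gray and by deposited name in orange and calls filled. By name Lfng lies at -3.61 and -2.20 and Notch3 at 2.51 and 1.83, and no member is called by label.

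Of 56 other genes of the pathway, 0 of 51 tested were called at 5 days by sample label in edgeR, against 0.00945% of all genes. There 5 had an unadjusted p under 0.05, and DESeq2 called 2 of 56, against 1.74% of all genes. After withdrawal by label 1 of 52 was called against 1.97% of all genes, and 15 had an unadjusted p under 0.05. DESeq2 called 8 of 55, against 9.4% of all genes. The gene called in edgeR was Rbpj, the DNA-binding partner of the receptors. It was higher in the TRULI d10 libraries by 2.31 ± 0.41 (edgeR adjusted p = 0.0444) than in those labelled DMSO d10, which were deposited as TRULI d5. By deposited name 1 of 52 was called at 5 days, the acetyltransferase gene Kat2b at -1.31 ± 0.23 (edgeR adjusted p = 0.0135), against 3.32% of all genes. DESeq2 called 5 of 55 there, against 4.73% of all genes. In edgeR 0 of 50 were called after withdrawal, where 3 had an unadjusted p under 0.05, and DESeq2 called 0. Across the 4 groups by deposited name 14 of 52 were called in edgeR, near the share of all genes. They were Adam10 of receptor cleavage, Pofut1 of receptor glycosylation, Neurl1b and Epn1 of ligand endocytosis, Rbpj, Maml2 and Kat2b of the nuclear complex, Numb, Numbl and Fbxw7 of the negative regulators, Dlk2 of the wider family, and the target genes Hes5, Hey1 and Hey2.

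Rbpj had 204, 363 and 459 counts in the DMSO d5 libraries and 397, 407 and 748 counts in the libraries deposited as TRULI d5. It had 2817 and 2065 counts in the libraries deposited as DMSO d10 and 4555 and 2654 counts in the TRULI d10 libraries. Its levels were thus 93.4 to 174 FPKM in every library deposited as d10, the same 4 libraries in which Notch3 was highest, and 20.2 to 41.3 FPKM in the others. Again this separation was not counted over all genes. Hes5, a repressor gene that Notch signaling is known to induce, had 66, 26 and 56 counts in the DMSO d5 libraries, 9, 29 and 11 in those deposited as TRULI d5, 0 and 0 in those deposited as DMSO d10 and 0 and 1 in the TRULI d10 libraries. It was thus at or under 3 counts in the same 4 libraries in which Lfng was lowest, a pattern that was not counted over all genes. Hey1, the most abundant target gene of the list, ranged from 141 to 452 FPKM over all libraries, and Hes1 from 34.5 to 123 FPKM. Both Hey1 and Hes5 were among the genes called across the 4 groups by deposited name in edgeR, and Hes1 was not.

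By deposited name 6 genes of the 52 rose and 6 fell after withdrawal within TRULI in edgeR, and 4 rose and 4 fell within DMSO. These 12 and 8 genes stand against 19.0% and 19.1% of all genes called, near the background. Rbpj (2.42 ± 0.33 and 2.49 ± 0.33), Kat2b (1.64 ± 0.31 and 0.97 ± 0.31), Numbl (1.88 ± 0.43 and 1.98 ± 0.44) and Fbxw7 (1.23 ± 0.29 and 1.26 ± 0.29) rose within TRULI and within DMSO, in that order. Adam10, a protease that sheds the receptor's outer part, rose within TRULI by 1.93 ± 0.35, and its relative Adam17 by 1.05 ± 0.29. Numb, which restrains the receptor, fell by -1.55 ± 0.50 within TRULI and -1.96 ± 0.52 within DMSO, and Hes5 fell in both. Neurl1b, Epn1, Dtx2 and Hey2 fell within TRULI and Dlk2 and Pofut1 within DMSO. By sample label 0 of the 52 were called over time within TRULI or within DMSO in edgeR and by DESeq2, and 3 and 1 had an unadjusted p under 0.05 in edgeR.

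The genes most like the leading member of each role over the 10 libraries were found from the root-mean-square difference of centered log2 CPM, among 11918 genes. For Notch1, whose own profile had an SD of 0.44, they were Chmp1a (0.18), Vps54 (0.19) and Ptdss1 (0.20). For Jag1, with an SD of 0.25, they were Nptn (0.13), Lancl1 (0.14) and Tmem185b (0.15). A difference is to be read against the SD of its member, since a flat profile lies near other flat profiles. For Lfng, whose own profile had an SD of 1.67, they were Cdkn1b (0.33), a cell-cycle inhibitor, Zdhhc1 (0.34) and Clcn7 (0.35). All of these share libraries and depth with the member to which they are compared.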

How the data were processed

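Reads had been aligned by the authors to GRCm38 (STAR), who deposited 1 table per library with the expected counts of 48709 genes and an effective length per gene, in the layout that RSEM writes; the counting program and its strand setting are not given in the sources used here. The deposited expected counts were not normalized and were rounded to whole numbers for the fits. The effective length, deposited in bases, served for FPKM. Members and lists were chosen with earlier results of these data known, and every member is named in every comparison, with other genes from fixed pathway lists. Symbols and biotypes came from GENCODE (48349 of the identifiers matched, 21695 protein-coding). Main fits used edgeR 4.0.16 (R 4.3.3) with filterByExpr, TMM and the quasi-likelihood test over protein-coding genes of the groups compared; DESeq2 1.42.0, other filters, left-out libraries, replicate blocks and groups by deposited name were alternatives, and the time comparisons and the fits of the 6 libraries of agreeing condition were added after seeing the data. Scripts were tested on simulated data. At 5 days, libraries of the same replicate number had correlations of deviations of 0.362, 0.185 and 0.293 by deposited name and -0.131, 0.053 and -0.172 by label. Unlike numbers were not compared, so that pairing by number was not tested. No 2 libraries agreed within sampling noise. Totals of 2463872 to 6255149 counts set the precision, and floors of 3 counts cover counting error only.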

Additional observations from a re-analysis of the deposited data

How the results depend on the processing

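Under the deposited names 4 of 10 libraries changed group. Groups by deposited name gave 0 members called at 5 days and 0 after withdrawal (with DESeq2 0, with the replicate block 0), 3 across the 4 groups (with DESeq2 5, with the block 3), 4 over time within TRULI (5 and 4) and 4 within DMSO (4 and 3), and with the block 2 at 5 days. Of all genes, DESeq2 by name called 28.21% across groups, 18.48% over time within TRULI and 19.32% within DMSO. The block fits by name called 25.57, 19.62 and 21.15% in that order. By sample label, omitting the filter called 2 members at 5 days, 2 after withdrawal and 2 across groups, DESeq2 called 1, 2 and 2, and fitting all 10 libraries together left 0 after withdrawal. In the same order, 4.015, 11.55 and 12.98% of all genes were called without the filter and 1.742, 9.385 and 8.033% by DESeq2. The libraries of agreeing condition gave 2 calls across groups and 1 over time within TRULI. The fold rule has no value for the test across 4 groups and was not run there. The cause of these changes was not tested.

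Leaving out 1 library moved the calls between 0 and 2 at 5 days, 0 and 3 after withdrawal, 0 and 3 across groups, 0 and 3 over time within TRULI and 0 and 4 within DMSO, over both groupings except across groups, where libraries were left out by sample label alone. Where 1 library was left in a group, it was taken to vary like the others. Over these fits the log2 fold change at 5 days spanned -0.15 to 0.26 for Notch1, -0.12 to 2.50 for Notch3, -0.0798 to 0.36 for Jag1, -0.0675 to 1.65 for Jag2, -2.15 to 1.35 for Dll1 and -2.54 to 0.25 for Rfng. After withdrawal it spanned -0.81 to 2.42 for Notch3, -0.50 to 0.0138 for Jag1, -1.29 to 0.86 for Jag2, -2.07 to 2.14 for Dll1, -2.69 to 1.97 for Lfng and -1.30 to 3.59 for Rfng.

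Signs turned at 5 days by deposited name for Notch1 (0.16, with DESeq2 0.15, with the block 0.16) and Rfng (0.0781, 0.0599, 0.0781), and in the libraries of agreeing condition for Notch3 (-0.0525). Dll1, near 0 by label, turned without the filter (-0.00701), with DESeq2 (-0.00425), in the fit of 10 libraries (-0.0208) and with the label block (-0.98). After withdrawal the deposited names, the same with DESeq2 and the same with the block turned Notch3 (-0.31, -0.32, -0.30), Jag2 (0.39, 0.39, 0.39), Dll1 (1.34, 1.37, 1.46), Lfng (0.98, 0.98, 1.15) and Rfng (1.77, 1.82, 2.03). Over time within TRULI, Rfng turned by deposited name (-0.89, with DESeq2 -0.89, with the block -0.66) and in the libraries of agreeing condition (-0.82), and the label block turned Jag2 (0.18), Dll1 (0.72) and Lfng (0.50). Within DMSO the deposited names turned Notch1 (-0.0135), Jag2 (-0.0517, with DESeq2 -0.0448), Dll1 (-2.13, -2.12 and with the block -2.18) and Rfng (-2.53, -2.54, -2.40).

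At 5 days, libraries of the same number by sample label had correlations of deviations of -0.131, 0.053 and -0.172. Entered as a replicate block by label, the numbers called 0 members at 5 days and 2 after withdrawal, Lfng at -2.29 and Notch3 at 1.73. After withdrawal 10.6% of 11469 genes were called with this block, and with 2 libraries a group the correlation of deviations was 0.216. Depth limits Dll1, Dll3, Mfng, Notch2 and Rfng, whose counts in some libraries were at most 4.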
